A study of Mus musculus with 20 samples.

Results

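The 9 genes described here encode transcription factors that act at the output of the circadian clock or feed back on it: Dbp, Tef, Hlf, Nfil3, Ciart, Bhlhe40, Bhlhe41, Rora and Rorb. They were chosen by name, after the Ensembl identifiers of the deposited count table had been matched to mouse symbols, by a rule that uses no measured value, although earlier results of these data were known when the group was proposed. All 9 were found among 78258 identifiers, of which 51487 had a symbol, and all 9 were among the 28564 genes that passed the filter on low counts. Rorb passed that filter only through the libraries of the lesioned side, so its counts are described separately, with no test, and the tests below concern the other 8 genes.

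RNA was sequenced from dorsal root ganglia, which house the cell bodies of sensory neurons, of 10 male mice, with 1 library from each side of each mouse. The 5 knockout mice (cKO; H61, H64, H95, H99 and H100) were Ahr fl/fl and carried Thy1CRE-ERT2/EYFP, in which the Thy1 promoter drives a tamoxifen-inducible Cre recombinase together with a yellow fluorescent protein. The 5 controls (H62, H63, H65, H96 and H97) were Ahr f/f or f/+, so all 10 mice carried at least 1 floxed allele of Ahr, which encodes the aryl hydrocarbon receptor. The labels name Cre for the cKO mice alone. Sample titles call the controls wildtype, while their library names read ff. All received tamoxifen at 100 mg/kg on 5 days at 17 weeks of age, and the sciatic nerve was cut 4 weeks later. The ganglia L4 to L6 were collected 1 day later, in a window from 2 to 4 h after lights on, from the contralateral (uncut) and the ipsilateral (cut) side. Comparing the sides asks what nerve transection does, and comparing the genotypes asks what loss of Ahr from Thy1-expressing cells does. Since Cre is named for the cKO mice alone, effects of the transgene and of Ahr loss cannot be told apart. Thy1 is active in neurons, whereas the libraries hold RNA of every cell in the ganglion, so fewer cells of a type and less RNA per cell cannot be told apart.

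The circadian clock is a feedback loop in which CLOCK and BMAL1 (gene Arntl) activate genes through E-boxes, and the PER and CRY proteins made from some of those genes repress them in turn. DBP, TEF and HLF form the PAR bZIP family; they bind a DNA element called the D-box and activate rhythmic genes, while NFIL3, a bZIP protein without the PAR domain, binds the same element and represses. CIART (CHRONO), BHLHE40 (DEC1) and BHLHE41 (DEC2) repress the CLOCK-BMAL1 pair, and the nuclear receptors RORA and RORB activate genes such as Arntl through a response element that the REV-ERB repressors also bind.

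Since members of this group are known targets of E-box and ROR or REV-ERB binding factors, the bases upstream of their start sites were searched for those elements. RefSeq promoter entries (GRCm38.p6) matched 8 of the 9 genes, with 10 start sites, and Bhlhe40 had none. In the 250 bases before a start site, the E-box CACGTG, a palindrome that reads alike on both strands, was present at 4 of 10 start sites, which belonged to 3 genes, against 6.02% of 32851 windows of that length in the whole table. The windows that held an E-box are shown 5′ to 3′ on the gene's strand, with the E-box in capitals, because they set Ciart apart by its number of copies.

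Ciart, chr3:95882229-95882478, minus strand: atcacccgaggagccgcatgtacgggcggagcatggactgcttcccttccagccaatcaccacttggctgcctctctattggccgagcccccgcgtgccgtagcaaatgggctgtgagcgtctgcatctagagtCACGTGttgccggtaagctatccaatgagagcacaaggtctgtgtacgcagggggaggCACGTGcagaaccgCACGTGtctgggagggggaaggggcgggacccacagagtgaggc
Tef, first start, chr15:81802423-81802672, plus strand: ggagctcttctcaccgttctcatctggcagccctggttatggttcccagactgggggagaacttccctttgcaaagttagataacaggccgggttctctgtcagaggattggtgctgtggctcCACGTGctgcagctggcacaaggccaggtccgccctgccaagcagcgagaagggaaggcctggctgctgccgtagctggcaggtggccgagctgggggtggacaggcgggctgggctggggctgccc
Tef, second start, chr15:81811164-81811413, plus strand: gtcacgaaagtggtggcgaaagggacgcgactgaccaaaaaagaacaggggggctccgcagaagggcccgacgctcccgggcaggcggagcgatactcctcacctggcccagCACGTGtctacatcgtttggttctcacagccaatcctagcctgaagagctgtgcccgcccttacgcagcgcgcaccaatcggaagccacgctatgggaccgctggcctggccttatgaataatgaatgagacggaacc
Bhlhe41, chr6:145865421-145865670, minus strand: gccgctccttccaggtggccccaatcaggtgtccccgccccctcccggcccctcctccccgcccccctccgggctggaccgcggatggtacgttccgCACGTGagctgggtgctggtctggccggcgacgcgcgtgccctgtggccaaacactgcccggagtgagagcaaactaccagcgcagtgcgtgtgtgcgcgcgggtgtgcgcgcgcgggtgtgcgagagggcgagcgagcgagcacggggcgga

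In Ciart the 3 E-boxes began 116, 58 and 44 bases upstream of the start, and only 20 of all windows (0.0609%) held at least 3. The E-boxes of Tef began 127 and 138 bases upstream of its starts, and that of Bhlhe41 153 bases upstream. In the GENCODE annotation 193 of the 7867 exon bases of Tef (2.45%) are also exons of Gm17597 on the opposite strand.

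Nfil3 is shown because it rose most among the well-counted genes and its window, alone among the 10, held the ROR and REV-ERB element TAGGTCA, which was searched on both strands and found in 2.23% of all windows. The element lies on the other strand, so it reads TGACCTA in the sequence (capitals), beginning 12 bases upstream of the start.

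Nfil3, chr13:52981040-52981289, minus strand: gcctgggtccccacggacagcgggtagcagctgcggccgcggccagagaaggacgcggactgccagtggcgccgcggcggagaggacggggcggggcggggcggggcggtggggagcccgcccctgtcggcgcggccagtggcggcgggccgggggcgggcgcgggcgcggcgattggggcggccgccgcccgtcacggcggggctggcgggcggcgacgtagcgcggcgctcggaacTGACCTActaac

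The core of the AhR response element, GCGTG, was searched on both strands as well and was present in at least 1 window of 7 of the 8 genes, with Nfil3 as the exception, at 7 of 10 start sites against 28.2% of all windows. The D-box letters TTATGTAA and TTACGTAA were in none of the 10 windows, and 0.819% and 0.113% of all windows held them. The letters TGACGTCA of the cAMP response element were at 1 of 10 start sites, against 1.55% of all windows. They began 9 bases upstream of the start of Hlf. The bases that follow this Hlf start were found in no GENCODE transcript of the gene. A match is a run of letters and was not tested for binding, and the base composition of the windows was not matched.

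Levels were compared between genes as CPM, counts scaled to a common library total, per kilobase of merged exons. In the control contralateral ganglia Tef was the highest, at 16.6 ± 0.79 CPM per kilobase (mean ± SD, n = 5 mice here and throughout). Bhlhe41 (6.87 ± 0.361), Dbp (6.24 ± 1.09) and Bhlhe40 (5.22 ± 0.39) followed, and the spread of Dbp reached both of its neighbours. Nfil3 had 3.24 ± 0.286, Hlf 1.87 ± 0.544, Rora 1.5 ± 0.0897 and Ciart 0.924 ± 0.134 CPM per kilobase, with Hlf and Rora within the spread of Hlf. Rorb was at the edge of detection, at 0.00208 ± 0.0016.

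One day after the lesion the order had changed. In the control ipsilateral ganglia Tef (14.5 ± 1.15 CPM per kilobase) and Bhlhe41 (13.5 ± 0.572) were within their spread of each other, and Nfil3 (12.0 ± 0.361) had moved up to the third place, above Bhlhe40 (6.39 ± 0.609) and Dbp (6.01 ± 0.699). The cKO ipsilateral ganglia had the same leading members, with Tef at 14.2 ± 0.669, Bhlhe41 at 13.4 ± 0.684 and Nfil3 at 11.6 ± 1.01 CPM per kilobase.

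**Figure D1:**
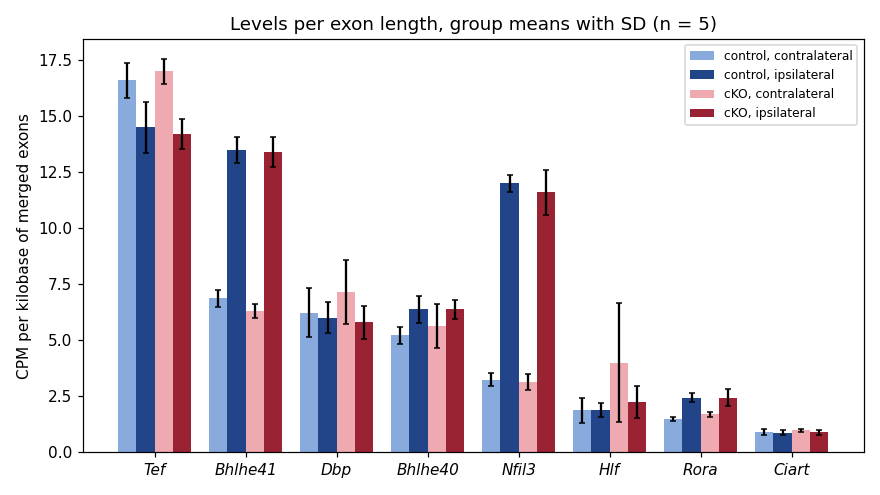
Mean level of 8 genes in CPM per kilobase of merged exons (vertical axis, linear from 0) in the 4 groups; error bars are the SD over 5 mice, and Rorb is left out because its level would not be visible. Bhlhe41 and Nfil3 are the genes whose dark (ipsilateral) bars stand well above their pale (contralateral) bars, and Tef is the highest gene in each group.

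The libraries held 76.2 to 119 M counts (mega) each, and the counting error of a library was at most 4.62% for the genes other than Ciart (6.36% to 8.51%, from 138 to 247 counts) and Rorb. Summed sensory neuron markers (10 genes) were at 7694 to 9212 CPM in each library, which fits the labelled tissue. Ahr itself, the targeted gene, was at 24.2 ± 2.10 CPM in the contralateral libraries of controls and at 20.4 ± 0.536 CPM in those of cKO mice, without overlap (two-sided exact permutation p 0.00794, which is the smallest value possible with 5 mice each), but its log2 fold change of -0.25 had an edgeR adjusted p of 0.103. On the ipsilateral side the values were 34.4 ± 2.86 and 31.9 ± 2.94 CPM (exact permutation p 0.198), and exon counts of a whole gene do not measure excision of the floxed part. Differences below are log2 fold changes of TMM-scaled CPM with their standard error (SE), tested with edgeR and adjusted over all tested genes; calls are at an adjusted p below 0.05.

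After transection Nfil3, Bhlhe41 and Rora rose in both genotypes and Tef fell slightly in both, while Dbp, Hlf and Ciart did not pass the test. The fit behind these calls has no term for the mouse. With the mouse as a block Dbp was also called lower in cKO mice (edgeR adjusted p 0.00659). Of the 8 genes other than Rorb, 4 were called higher in control mice (Nfil3, Bhlhe41, Rora and Bhlhe40), where 13.8% of all tested genes were called higher, and 1 was called lower (Tef), where 16% were. In cKO mice 3 were called higher (Nfil3, Bhlhe41 and Rora) against 16.2% of all genes, and 1 lower (again Tef) against 15.1%. The median log2 fold change of the 8 genes was 0.15 in control and 0.02 in cKO mice, beside medians of -0.0047 and -0.0296 over all genes tested. The ranges of the sides did not overlap for 3 of the 8 genes in control mice (23.6% of all genes) and for 4 in cKO mice (20.2%).

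**Figure D2:**
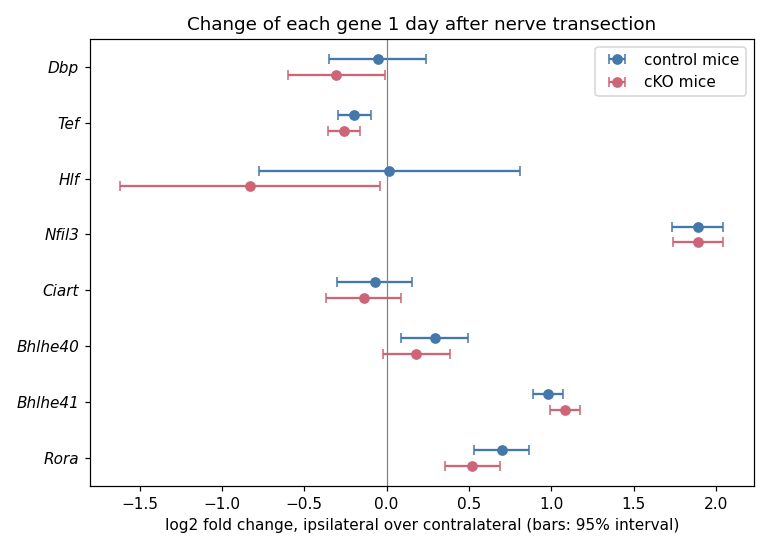
Log2 fold change of 8 genes (without Rorb), ipsilateral over contralateral (horizontal axis), in control (blue) and cKO mice (red); points are edgeR estimates and bars their 95% intervals. Nfil3 lies at 1.89 in both genotypes and Bhlhe41 near 1, Tef lies just below 0 in both, and the intervals of Hlf are the widest.

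Nfil3, the D-box repressor, had the largest change of the 8. In control mice H62, H63, H65, H96 and H97 it had 7.43, 6.88, 6.28, 6.12 and 6.11 CPM on the contralateral side and 24.9, 24.9, 24.2, 24.4 and 23.1 CPM on the ipsilateral side. In cKO mice H61, H64, H95, H99 and H100 it had 5.73, 5.93, 7.22, 5.93 and 6.98 CPM contralaterally and 21.5, 25.9, 25.5, 21.7 and 23.4 CPM ipsilaterally. Every ipsilateral library was above every contralateral one. The rise was 3.70-fold in control mice (log2 fold change 1.89, SE 0.0734, edgeR adjusted p 8.51e-14) and 3.71-fold in cKO mice (1.89, SE 0.0736, adjusted p 6.99e-14). Within single mice the ratio of the sides ran from 3.34 to 4.36, and it was above 1 in 10 of 10 mice, as for 12.5% of all genes tested. By p-value Nfil3 ranked 22nd among all tested genes in control mice and 27th in cKO mice.

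Bhlhe41, a repressor of CLOCK-BMAL1, roughly doubled. Its contralateral levels in H62, H63, H65, H96 and H97 were 44.5, 43.0, 48.7, 46.4 and 48.2 CPM, and its ipsilateral levels were 96.4, 92.6, 89.8, 85.9 and 90.0 CPM. In the cKO mice H61, H64, H95, H99 and H100 the values were 43.3, 39.5, 43.2, 45.1 and 41.4 CPM, then 94.4, 92.1, 93.6, 84.4 and 86.0 CPM. The sides did not overlap in either genotype, and the spread within each group was small, at 4.22% to 5.26% of the mean. The log2 fold change was 0.98 (SE 0.0438, edgeR adjusted p 5.73e-13) in control and 1.08 (SE 0.0439, adjusted p 1.13e-13) in cKO mice. In the GENCODE annotation 19% of the exon bases of Bhlhe41 (1280 of 6720) are also exons of Gm43909 on the opposite strand, which was called higher as well, by 1.01 in control and by 1.17 in cKO mice on the log2 scale. The strand setting of the counting is not given in the sources used here, so reads of this pair cannot be told apart in the shared bases.

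Bhlhe40, the closest relative of Bhlhe41, moved much less. In the control mice, in the same order, it had 27.0, 24.6, 23.1, 25.6 and 22.5 CPM contralaterally and 31.0, 31.8, 25.5, 29.3 and 32.8 CPM ipsilaterally. The cKO mice had 19.6, 28.5, 29.4, 24.1 and 30.9 CPM, then 28.6, 30.1, 30.0, 28.2 and 33.1 CPM. It was higher on the ipsilateral side in 10 of 10 mice, but the groups overlapped in both genotypes. The rise was called in control mice (log2 fold change 0.29, SE 0.0972, edgeR adjusted p 0.0286) and did not pass the test in cKO mice (0.18, SE 0.0971, adjusted p 0.177). The call in control mice was lost without H63 (0.28, adjusted p 0.0882), without H97 (0.24, adjusted p 0.133), without a filter on low counts (0.30, adjusted p 0.0564) and on both FPKM scales. Ciart, the third repressor of CLOCK-BMAL1 in the group, was lowly expressed, at 1.62 to 2.48 CPM over the 20 libraries, and its side difference of -0.07 (SE 0.109) in control and -0.14 (SE 0.109) in cKO mice did not pass the test. Its SD over mice was 14.5% and 11.7% of the mean in the contralateral and ipsilateral libraries of control mice and 6.73% and 13.1% in those of cKO mice, beside the counting error of 6.36% to 8.51%.

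**Figure D3:**
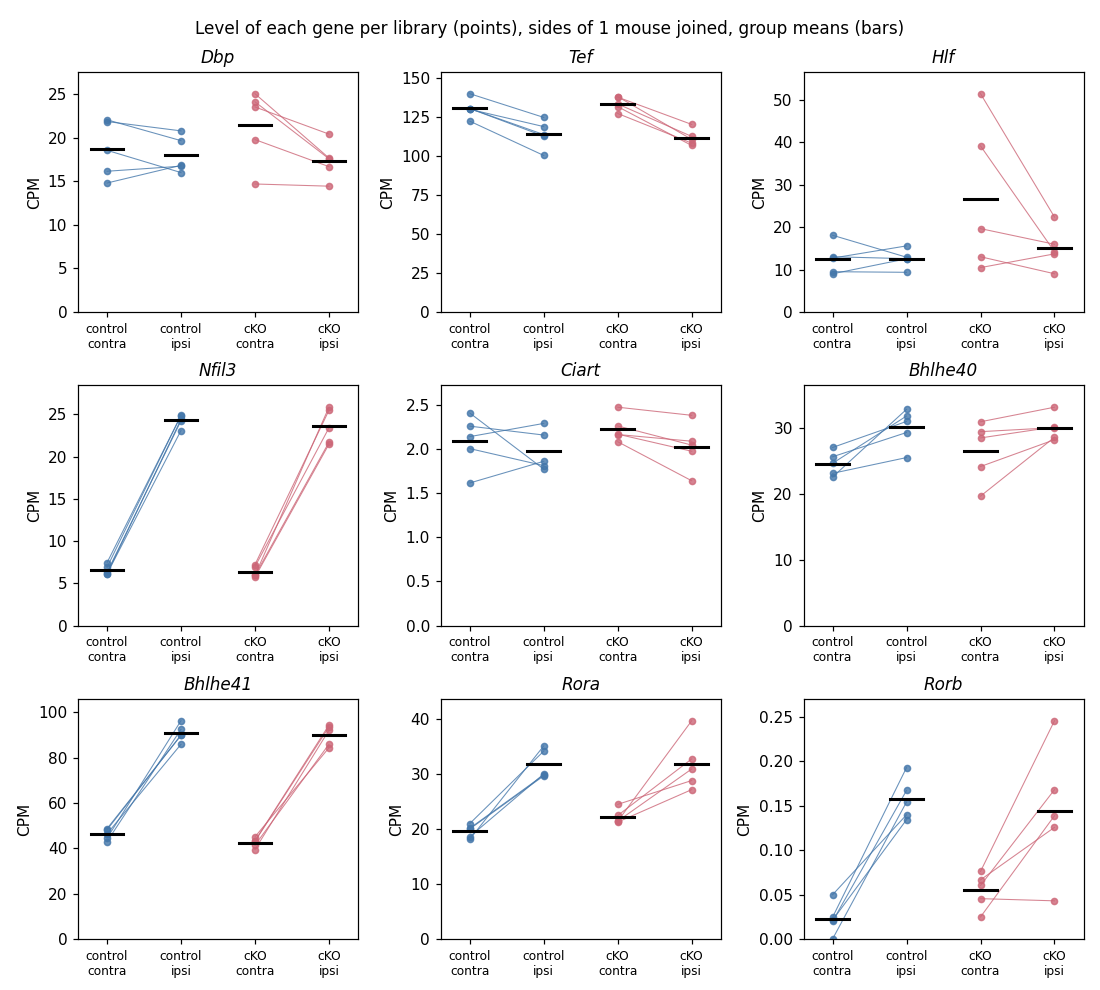
CPM of each of the 9 genes (vertical axes, linear from 0, a scale per gene) in the 4 groups; points are libraries, lines join the sides of a mouse and bars are group means (n = 5). Lines rise in 10 of 10 mice for Nfil3, Bhlhe40, Bhlhe41 and Rora and fall in 10 of 10 for Tef, while the cKO contralateral points of Hlf spread from 10.5 to 51.5 CPM.

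Rora, the nuclear receptor that activates Arntl, rose after the lesion, with a gain of 62.2% in control mice and 43.5% in cKO mice. Its contralateral levels in H62, H63, H65, H96 and H97 were 21.0, 18.1, 20, 18.6 and 20.1 CPM, against 34.1, 35.1, 29.7, 30.0 and 29.8 CPM ipsilaterally. In H61, H64, H95, H99 and H100 they were 22.4, 21.4, 21.4, 21.2 and 24.5 CPM, against 32.7, 39.7, 30.9, 27.2 and 28.8 CPM. Every ipsilateral library of a genotype was above its contralateral libraries, with the highest value in H64 and the lowest ipsilateral value in H99. The log2 fold changes were 0.70 (SE 0.0809, edgeR adjusted p 1.09e-06) and 0.52 (SE 0.0807, adjusted p 3.81e-05).

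Rorb, the family member best known from the retina and brain, was close to absent. Its counts in the control contralateral libraries were 2, 2, 2, 6 and 0, and in the ipsilateral ones 11, 15, 14, 12 and 16. The library with 0 counts allows a level of up to 0.0374 CPM (3 counts; intervals and limits of this kind cover counting error only). In cKO mice the counts were 4, 6, 6, 5 and 2 contralaterally and 4, 29, 14, 18 and 12 ipsilaterally, so H61 stayed at 4 on both sides while the other 4 mice were higher on the lesioned side. Summed over 5 libraries these were 12 and 68 counts in control and 23 and 77 in cKO mice. Since Rorb was tested at all only because of its ipsilateral counts, these values are a description with no test.

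Among the PAR bZIP activators, Tef fell by a small amount in every mouse. The control mice H62, H63, H65, H96 and H97 had 140.0, 130.5, 130.0, 122.4 and 130.5 CPM contralaterally and 124.8, 112.8, 118.9, 100.4 and 113.8 CPM ipsilaterally. The cKO mice H61, H64, H95, H99 and H100 had 137.8, 131.7, 133.4, 127.3 and 138.1 CPM, then 120.3, 106.8, 112.6, 108.3 and 110.7 CPM. The sides did not overlap in cKO mice, and in control mice they overlapped only because H96 was low on both sides and H62 high on both. The log2 fold change was -0.20 (SE 0.0475, edgeR adjusted p 0.00319) in control and -0.26 (SE 0.0475, adjusted p 0.000234) in cKO mice, and 10 of 10 mice fell, as for 11.1% of all genes tested.

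Dbp, whose protein was named for binding the D site of the albumin promoter, had a wide spread between mice. Control mice had 21.8, 22.04, 18.5, 14.8 and 16.1 CPM contralaterally and 20.8, 19.6, 16.0, 16.8 and 16.7 CPM ipsilaterally. The cKO mice had 23.5, 24.1, 25.03, 14.7 and 19.8 CPM contralaterally and 20.4, 17.6, 17.7, 14.4 and 16.7 CPM ipsilaterally. H99 was the lowest cKO mouse on both sides, and the sides overlapped in both genotypes. The difference between sides was -0.05 (SE 0.14, edgeR adjusted p 0.829) in control mice. In cKO mice it was -0.30 (SE 0.14, adjusted p 0.111), with 5 of 5 mice lower on the lesioned side (35.4% of all genes moved 1 way in all 5 cKO mice). With the mouse as a block, which removes the spread between mice, the cKO difference was called (-0.29, adjusted p 0.00659). It was also called with a covariate for low or high mouse numbers (-0.30, adjusted p 0.0448) and without H99 (-0.35, adjusted p 0.0386). Whether the genotypes differ in this is covered by the interaction, which did not pass the test. The interaction was -0.25 (95% interval -0.67 to 0.17) without the block and -0.25 (edgeR adjusted p 0.397) with it. Dbp shares 18% of its exon bases with Sphk2 on the opposite strand, and Sphk2 differed between sides by 0.08 in control and 0.13 in cKO mice, the other way.

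Hlf, the third PAR bZIP gene, did not pass the test in either genotype, but the cKO contralateral libraries of H95 and H100 stood apart. It had 18.1, 13.0, 9.52, 9.01 and 12.7 CPM contralaterally and 12.9, 12.6, 9.37, 12.6 and 15.6 CPM ipsilaterally in control mice. The cKO mice H61, H64, H95, H99 and H100 had 10.5, 19.7, 39.2, 13.0 and 51.5 CPM contralaterally and 13.7, 16.0, 14.2, 9.03 and 22.4 CPM ipsilaterally. H95 and H100 alone raised the cKO contralateral mean to 26.8 ± 17.8 CPM. The side difference was 0.02 (SE 0.374, edgeR adjusted p 0.981) in control and -0.83 (SE 0.373, adjusted p 0.104) in cKO mice.

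Markers of several other cell types were also high in some of the libraries with high Hlf. In the contralateral libraries the summed level of 6 fibroblast markers was 801.6 to 1356 CPM in control mice and 934.8 to 2236 CPM in cKO mice, with 1980 CPM in H95 and 1685 CPM in H100; none of the 6 was at 0, and 6 of 6 had a positive genotype difference (median 0.81), with 0 of 6 called. H64 had the highest fibroblast sum, 2236 CPM, with Hlf at 19.7 CPM, so the order of the libraries was not the same for both. H100 also had 1582 CPM of 6 muscle markers, against 4.52 to 57.7 CPM in the other cKO contralateral libraries. The contralateral genotype difference was also positive for 7 of 7 macrophage (median 0.23), 6 of 6 neutrophil (0.72), 5 of 5 erythroid (0.47), 6 of 6 endothelial (0.14) and 5 of 6 muscle markers (1.34), with 0 called. It was negative for 6 of 6 lymphocyte markers (-0.48) and 8 of 10 sensory neuron markers (-0.03), and satellite glia (0.04) and Schwann cell markers (0.01) were divided, again with 0 called. Over the 20 libraries with group means removed, the fibroblast sum had a Pearson correlation of 0.70 with Hlf (Spearman 0.71), 0.75 with Bhlhe40 (0.79), 0.56 with Nfil3 (0.61) and -0.65 with Bhlhe41 (-0.66), and the macrophage sum one of 0.73 with Bhlhe40 (0.78). With Hlf the value was 0.50 for the macrophage sum, 0.40 for the endothelial sum (0.66 without the 2 libraries farthest from the median), 0.41 for the erythroid sum and 0.37 for the muscle sum (0.11 without 2 libraries). Libraries of a mouse are not independent, so these values are descriptions without a test, and the part of these cells in the levels was not tested.

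**Figure D4:**
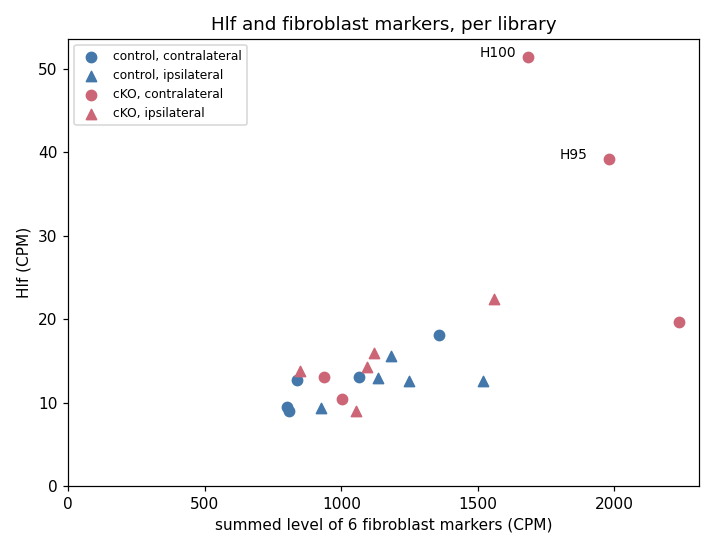
Hlf in CPM (vertical axis) against the summed CPM of 6 fibroblast markers (horizontal axis), 1 point per library, coloured by genotype and shaped by side. The contralateral libraries of H95 and H100 lie above all others in Hlf, at 39.2 and 51.5 CPM, while H64 lies farthest right at 2236 CPM of fibroblast markers.

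Side differences of marker lists are given for comparison. Of 6 satellite glia markers 3 were called higher in control and 2 in cKO mice (13.8% and 16.2% of all genes), and of 10 sensory neuron markers 4 and 3 were called lower (16% and 15.1% of all genes), with summed levels of 8008 to 9092 CPM (contralateral) and 8002 to 8830 CPM (ipsilateral) in control mice. Satellite glia sums were 1864 to 2041 CPM contralaterally and 2079 to 2363 CPM ipsilaterally in control mice, and 1824 to 2214 and 1999 to 2197 CPM in cKO mice. Macrophage sums were 61.6 to 109 and 66.7 to 130.9 CPM in control and 64.2 to 151 and 86.7 to 151.8 CPM in cKO mice. The median log2 fold change of the satellite glia markers was 0.16 in control and 0.07 in cKO mice, and that of the macrophage markers 0.41 and 0.20, with 1 of 7 called higher in control and 0 in cKO mice. In control mice 6 of 6 endothelial markers were higher on the lesioned side (median 0.39, 2 called, sums of 88.5 to 128.6 and 105 to 154.5 CPM), as were 6 of 6 fibroblast (0.32) and 6 of 6 neutrophil markers (0.58), with none of these called. In cKO mice the medians were 0.03, -0.48 and -0.11 for these 3 lists, with 0 called. The cKO median of 6 muscle markers was -3.24, with 6 of 6 negative, and that of 5 erythroid markers -0.41, with 5 of 5 negative, and none of these was called (0.46 and 0.03 in control mice, with 0 called). Muscle sums in cKO mice were 4.52 to 1582 CPM contralaterally and 2.04 to 111.8 CPM ipsilaterally, and erythroid sums were 271.6 to 833.2 and 251.8 to 615.7 CPM. The endothelial, fibroblast, neutrophil, macrophage and muscle medians in control mice exceed in size the changes of Bhlhe40 and Tef. The part of these cells in the changes of the clock output genes was not tested. Mice fell into a range of low numbers (61 to 65) and one of high numbers (95 to 100), and the mean difference between sides over 5 mice each was 1.91 and 1.87 for Nfil3, 1.09 and 0.97 for Bhlhe41, 0.73 and 0.47 for Rora, 0.27 and 0.22 for Bhlhe40, and -0.20 and -0.26 for Tef.

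Between genotypes, none of the 8 genes passed the test on either side; these comparisons use the same libraries as those between sides. On the contralateral side 0 of 8 were called, where edgeR called 0.0735% of all genes, and 3 of the 8 had an unadjusted p under 0.05 against 17.5% of all genes. These were Hlf (log2 fold change 1.1, SE 0.376, adjusted p 0.154), Bhlhe41 (-0.12, SE 0.0437, adjusted p 0.172) and Rora (0.18, SE 0.0809, adjusted p 0.251). Rora was the only one of the 8 whose contralateral ranges did not overlap, at 18.1 to 21.0 CPM in control and 21.2 to 24.5 CPM in cKO mice, as for 1.52% of all genes.

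The genotype difference of Hlf rested on 2 mice. Without H95 and H100, an alternative added after the values were seen, it was 0.21, while without H99 it was 1.28 and called (edgeR adjusted p 0.0346). Over single mice left out it ran from 0.72 to 1.31. Bhlhe41 was likewise called only without H99 (-0.14, adjusted p 0.041). Without H99, 3326 genes in all were called instead of 21.

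On the ipsilateral side the adjusted p-values of all 8 were 1, in a comparison that called 0.007% of all genes. The log2 difference of Nfil3 was -0.04 (95% interval -0.19 to 0.10), of Bhlhe41 -0.01 (-0.10 to 0.08), of Tef -0.03 (-0.13 to 0.07) and of Rora 0.01 (-0.16 to 0.17). Bhlhe40 was at 0.00 (-0.21 to 0.20), Dbp at -0.05 (-0.35 to 0.24) and Ciart at 0.03 (-0.19 to 0.26). None of the 8 genes had ranges without overlap on this side, against 0.599% of all genes. For Hlf the interval was wide, from -0.53 to 1.04 around 0.26.

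The test of whether transection acted differently in the genotypes called no gene at all (0% by edgeR, 2799 genes or 9.8% at an unadjusted p under 0.05, none of them among the 8, and 11 calls by DESeq2). For Nfil3 the interaction was 0.00 (95% interval -0.21 to 0.21), which limits any genotype effect on its rise to a small part of the 1.89 seen in each genotype. It was 0.11 (-0.02 to 0.23) for Bhlhe41, -0.18 (-0.41 to 0.06) for Rora and -0.06 (-0.20 to 0.08) for Tef. The interval of Hlf (-1.96 to 0.27) leaves room for large differences.

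The libraries of a mouse share its time of death, so the 2 sides were also read as repeats of 1 animal. Deviations here are log2 CPM minus the mean of the group. Dbp deviated in the same direction on both sides in 9 of 10 mice, Ciart and Bhlhe40 in 8, and Tef, Hlf and Nfil3 in 7, whereas Rora did so in 5 and Bhlhe41 in 3. In a test of the 8 within-genotype mouse terms, which called 0.406% of all genes, none of the 8 genes was called. An unadjusted edgeR p under 0.05 was found for 5 of the 8, against 11.1% of all genes. Dbp came closest (unadjusted p 0.000774, edgeR adjusted p 0.108, rank 203 of all genes) and was called when no filter was applied (adjusted p 0.0227). Tef followed with an adjusted p of 0.217, then Hlf with 0.424 and Nfil3 with 0.441.

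The mice lowest for Dbp, H99 and H96, were also the lowest for some but not all other clock genes. H99 had the lowest mean Dbp deviation, -0.39, and H96 the next, -0.20, while H62 had the highest, 0.23. H96 and H99 were also the lowest mice for Tef (-0.14 and -0.06), Ciart (-0.22 and -0.19) and Per2 (-0.39 and -0.24), and H62 was the highest for Tef (0.12) and Per2 (0.41). H97, the third lowest for Dbp (-0.14), was above its group for Ciart (0.13), Per2 (0.10) and Hlf (0.20), and for Nr1d1, a REV-ERB gene, H96 was slightly above (0.05) and H99 below (-0.07). Arntl, whose protein drives these genes, was high in H96 (0.49) and H99 (0.29) and low in H65 (-0.38) and H61 (-0.38). Per2 and Arntl passed the mouse test (edgeR adjusted p 0.00899 and 0.0106). The mice were taken within a 2 h window, and the time of each one is not given in the sources used here, so its part in these differences was not tested.

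**Figure D5:**
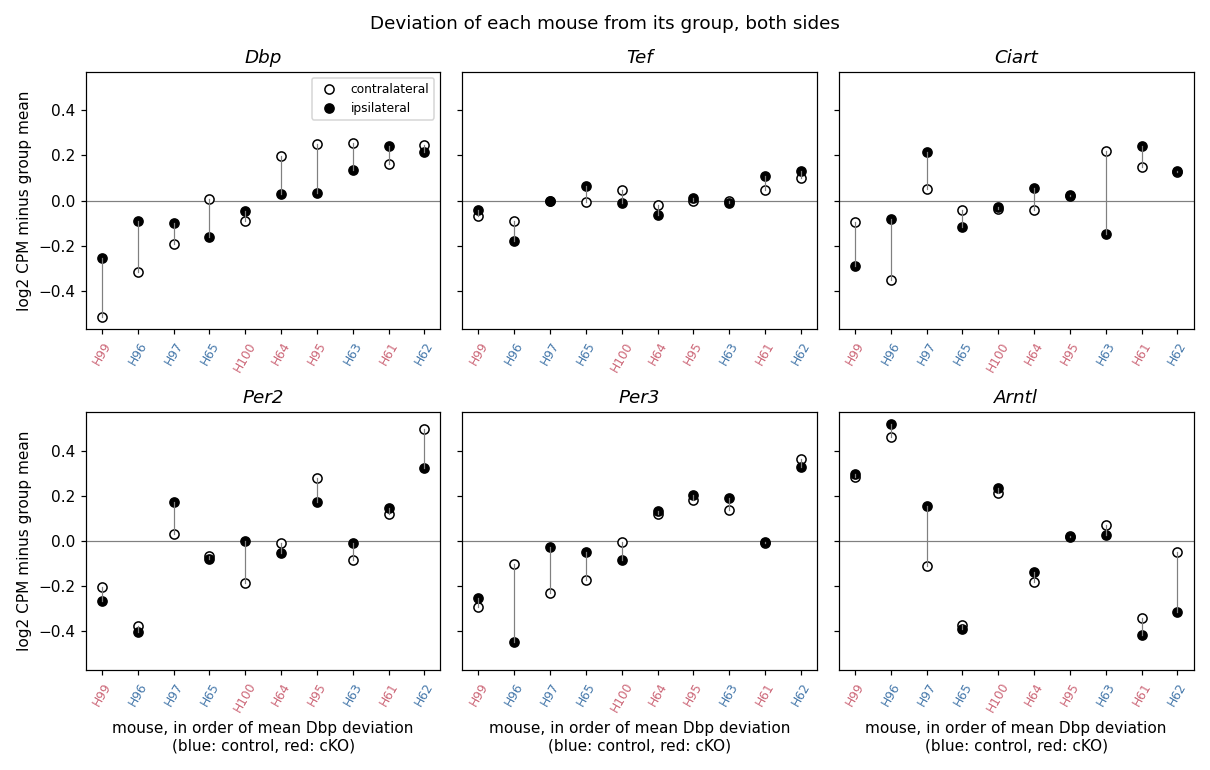
Deviation of each mouse from its group mean in log2 CPM (vertical axis) for Dbp, Tef and Ciart (top) and Per2, Per3 and Arntl (bottom), with the sides as open and filled points; mice are ordered in every panel by their mean Dbp deviation. H99 and H96, at the left, are low for the first 5 genes and high for Arntl, and the sides of a mouse deviate in the same direction in 9 of 10 mice for Per2 and Arntl and in 10 of 10 for Per3.

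Over the 20 libraries with group means removed, Dbp had a Pearson correlation of 0.73 with Per3 (Spearman 0.80), 0.69 with Nr1d2, 0.67 with Per2, 0.63 with Ciart and 0.52 with Tef, and of -0.53 with Arntl. Tef had -0.71 with Arntl. Without the 2 libraries farthest from the median of Dbp the value with Per3 was 0.73, and that with Tef was 0.41. Each pair of libraries shares a mouse and all libraries share their scaling, so these values describe the set and carry no test.

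By the same measure, among genes averaging 5 CPM or more, those most like Dbp were Plce1 (0.90), Lsm10 (0.88), Max (0.84), Alkal2 (0.81) and Slc6a6 (0.80), and the most opposite were Edc4 (-0.85), Atg7 (-0.84) and Fam83d (-0.84). Those most like Hlf were Slc13a4 (0.99), Rbp4 (0.98), Aebp1 (0.98), Thsd4 (0.98) and Trp53i11 (0.97). These 5 kept values of 0.95 to 0.98 without the 2 libraries farthest from the median of Hlf. Those most like Nfil3 were Ehd1 (0.87), Steap3 (0.86), Podxl (0.83), Tmem43 (0.83) and Apba3 (0.82). Within the group, Hlf and Bhlhe40 were the closest pair, at 0.82 (Spearman 0.77).

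Other clock genes moved in both directions after the lesion. Of 17 core clock genes 5 were called higher and 2 lower in control mice (median -0.03), and 7 higher and 3 lower in cKO mice (median 0.02), beside 13.8% and 16% of all genes in control and 16.2% and 15.1% in cKO mice. Per1, a repressor that is also induced quickly by many stimuli, rose the most of those called, by 0.75 (SE 0.159, edgeR adjusted p 0.00135) and 0.72 (adjusted p 0.00182). Csnk1e and Csnk1d, kinases that act on the PER proteins, were higher by 0.35 and 0.26 in control mice and by 0.47 and 0.29 in cKO mice, all called. Nr1d2, which encodes a REV-ERB repressor, was at -0.13 in control mice (adjusted p 0.0802) and fell by 0.32 in cKO mice (adjusted p 0.000124), and Npas2 fell by 0.33 in control mice (adjusted p 0.0155) but was at 0.11 in cKO mice (adjusted p 0.462), with an interaction of 0.44 that did not pass the test (adjusted p 0.485). Arntl, the gene on which RORA and REV-ERB proteins act, differed between sides by -0.02 and 0.02 (SE 0.184 and 0.183).

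Of 10 further genes known for daily rhythms in many tissues, 2 were called higher and 3 lower in control mice and 2 higher and 4 lower in cKO mice, with medians of -0.09 and -0.26, beside the same shares of all genes. None of the 17 core clock genes and none of these 10 was called between genotypes on either side by edgeR, where 21 and 2 genes in all were called. For comparison with the D-box activators, Per3 was at -0.15 in control mice (adjusted p 0.466) and fell by 0.37 in cKO mice (adjusted p 0.0461).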

How the data were processed

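The deposited counts are whole-number exonic reads per gene and library, without normalization, and the FPKM that the authors deposited divide the same counts by the whole gene span for 93% of the genes compared, so FPKM were used only within genes, as log2 values of FPKM. Per the submitters' processing notes HISAT2, Picard, mm10 and mm39 were used; the counter, annotation and strand setting are not given in the sources used here. Symbols came from GENCODE M21 by identifier, which covered 98.1% of all counts.

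Counts were fitted in R 4.3.3 with edgeR 4.0.16 (filterByExpr with a minimum count of 10 and a minimum total of 15, TMM, quasi-likelihood F-test with the robust option) as 1 model of 20 libraries with 4 group means. Benjamini-Hochberg adjustment covered the 28564 tested genes. Log2 CPM used a prior count of 2. Mouse differences came from a fit with each mouse as a term. The injury test in control mice and the test of mouse differences were also run on simulated counts. Alternatives were DESeq2 1.42.0, limma 3.58.1 on log2 FPKM (pseudocount 1, and 0.1), limma-voom with a random mouse effect, RLE scaling, no filter, a filter at a mean of 1 CPM, only the libraries compared, the range of mouse numbers, a mouse block, and leaving out each mouse.

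The sides of a mouse come from 1 animal, so replicate numbers pair them; the correlation of their deviations across genes ran from -0.0546 to 0.361. The genes and lists were chosen with earlier results of these data known. All 9 genes are named; of other lists the rule allowed at most 4 members with the lowest adjusted p per comparison plus named clock genes. Likeness was ranked among genes with a symbol, without predicted genes. A label field speaks of spinal cord injury, but the protocol of sciatic transection was followed; the shortened title of 1 library was read by its library name.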

Additional observations from a re-analysis of the deposited data

How the results depend on the processing

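Over 40 values of the 8 genes other than Rorb, 800 recomputations under the alternatives kept the side of the threshold and any direction in 754, lost the call in 5 (each time that of Bhlhe40 after injury in control mice), gained it in 5 and changed sign in 36, where the value was called neither before nor after. The sign changes were those of Hlf between sides in control mice with the covariate of mouse numbers (-0.0099) and with single mice left out (-0.070 to 0.18), and of Ciart there with single mice left out (-0.12 to 0.034). Between genotypes contralaterally they were those of Bhlhe40 without H95 and H100 (-0.030) and of Nfil3 with single mice left out (-0.081 to 0.0028). Ipsilaterally Bhlhe40 was at 0.010 on the FPKM scale with a pseudocount of 1 and 0.013 with 0.1, and with single mice left out the ranges crossed 0 for Bhlhe40 (-0.051 to 0.033), Bhlhe41 (-0.034 to 0.010), Ciart (-0.032 to 0.10), Dbp (-0.12 to 0.0078), Rora (-0.086 to 0.059) and Tef (-0.075 to 0.0033), as did that of Rorb (-0.39 to 0.11), which is only described. The interaction of Nfil3 was at -0.0024 with DESeq2, -0.0021 with RLE, -0.0025 with the filter at 1 CPM, -0.013 and -0.011 on the FPKM scales with a pseudocount of 1 and 0.1, and at -0.056 to 0.041 with single mice left out. The cause of these sign changes was not tested. The injury calls of Nfil3, Bhlhe41, Rora and Tef held in all of the alternatives run, but some sizes moved. Under alternatives other than leaving out single mice, Nfil3 ran from 0.89 to 1.90 in control and 0.88 to 1.97 in cKO mice. Rora ran from 0.022 to 0.71 and from 0.018 to 0.61, while Bhlhe41 and Tef moved less. The 21 calls between genotypes on the contralateral side became 1041 with DESeq2, 50 unfiltered, 45 with a filter at a mean of 1 CPM, 6 and 7 on log2 FPKM (pseudocount 1 and 0.1), 2 when other libraries were left out of the fit and 2 without H95 and H100, and ran from 4 to 3326 with single mice left out (3326 without H99; 174 without H61). The 0 interaction calls became 11 with DESeq2 and ran from 0 to 43 (43 without H99). The 116 mouse calls became 304 without a filter and ran from 66 to 134 (66 without H65). The cause was not tested. The injury calls ran from 6832 to 8891 in control and 7151 to 9077 in cKO mice with single mice left out, and from 7176 to 9270 and 5975 to 9741 under the other alternatives. With the replicate block (mouse), 8559 and 9015 genes were called after injury, 7946 and 8313 of them shared with the fit without it, and the only call of the 8 genes that changed was Dbp in cKO mice, gained at -0.29. Depth limits Rorb, and for Hlf and Dbp the spread between mice is larger than counting error.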

Other observations

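Several genes known to respond to glucocorticoids, hormones that rise and fall each day and with stress, differed between mice. The list was chosen with earlier results of these data known, so its share of calls is a description and no test of the list. In the test of within-genotype mouse terms 6 of the 10 on the list were called by edgeR, against 0.406% of all genes, beside 2 of 17 core clock genes and 1 of 10 further rhythmic genes (Tsc22d3, which is on both lists). The lowest adjusted p was that of Zbtb16 (5.18e-05), a transcription factor, followed by Ddit4 (0.000569), Errfi1 (0.0017) and Tsc22d3 (0.016). Zbtb16 deviated from its group mean by 1.17 in H97 and 0.94 in H95 and by -0.65 in H96 and -0.62 in H100 on the log2 scale, with the same sign on both sides in 9 of 10 mice. H96 was thus low for Zbtb16 and for Dbp, whereas H97, the highest for Zbtb16, had a mean Dbp deviation of -0.14. After the lesion 3 of the 10 were called higher and 1 lower in each genotype, beside 13.8% and 16% of all genes in control and 16.2% and 15.1% in cKO mice.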
